A study of Arabidopsis thaliana with 11 samples.

Results

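The loci described here belong to the rapid response to wounding and touch and were followed in the developing *Arabidopsis* seed after the loss of maternal linker histone H1. They are the ethylene response factors *ERF105* (AT5G51190), *ERF104* (AT5G61600), *ERF5* (AT5G47230), *ERF6* (AT4G17490) and *ERF11* (AT1G28370), the zinc finger genes *ZAT10* (AT1G27730) and *ZAT12* (AT5G59820), *WRKY33* (AT2G38470), *WRKY40* (AT1G80840), and AT1G35210. These are 10 of the 27588 genes in the table of total counts. The loci were chosen by name with the expression difference between the mutant and control endosperm of these same libraries already known, so their values in that contrast are given as a description and without a test. All but the last encode transcription factors, whereas the RefSeq annotation calls the product of AT1G35210 an uncharacterized protein.

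Plants of the control cross (*H1/H1*) had a wild-type Col-0 mother and a L*er* father. In the *h1/H1* cross the Col-0 mother carried T-DNA alleles of all H1 genes (*h1.1-1* of *H1.1*, *h1.2-2* of *H1.2* and *h1.3-1* of *H1.3*) and the father was again wild-type L*er*, so that only the maternal H1 copies were mutant and the embryo and endosperm kept the paternal ones. Seeds were dissected by hand 8 days after the cross, and the endosperm fraction also contained seed coat, a tissue of the mother. Of 11 samples listed, 6 had columns whose names gave the cross and the tissue: the *H1/H1* endosperm libraries A and B, the *h1/H1* endosperm libraries C, D and E, and library F, which its column name gives as *H1/H1* embryo. F entered no comparison between the crosses. Its markers, given below, leave the embryo label uncertain. Alone in its group, F shared in the filter and the scaling but added no spread between replicates.

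Wounding, touch, and pathogen-derived molecules raise cytosolic calcium and activate a cascade of MAP kinases within minutes, and the first genes to be transcribed include those encoding AP2/ERF, C2H2 zinc finger, and WRKY transcription factors. WRKY proteins bind the W-box, whose core is TTGAC, and ethylene response factors bind the GCC box, GCCGCC. Several of the proteins are phosphorylated by the MAP kinases MPK3 or MPK6, among them WRKY33, ERF104 and ERF6.

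To see what the loci share in sequence, the 250 bases before the annotated start of 9 of them were read from the RefSeq assembly TAIR10.1. The upstream sequences of 3 loci are printed 5′ to 3′ on the strand of the gene. The first belongs to a locus that separated the crosses, and the others to the loci that differed most between the control libraries. Capitals mark the W-box core and the GCC box on either strand, which read GTCAA and GGCGGC where they lie on the opposite one. The sequence of AT1G35210 lies at chr1:12897676-12897925 on the minus strand, that of *WRKY33* at chr2:16107985-16108234 and that of *WRKY40* at chr1:30383311-30383560, both on the plus strand.
AT1G35210: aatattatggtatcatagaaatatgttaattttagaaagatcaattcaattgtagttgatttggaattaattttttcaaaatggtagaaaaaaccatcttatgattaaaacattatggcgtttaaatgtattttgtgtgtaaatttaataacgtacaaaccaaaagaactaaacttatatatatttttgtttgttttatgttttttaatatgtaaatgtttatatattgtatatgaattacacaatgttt
WRKY33: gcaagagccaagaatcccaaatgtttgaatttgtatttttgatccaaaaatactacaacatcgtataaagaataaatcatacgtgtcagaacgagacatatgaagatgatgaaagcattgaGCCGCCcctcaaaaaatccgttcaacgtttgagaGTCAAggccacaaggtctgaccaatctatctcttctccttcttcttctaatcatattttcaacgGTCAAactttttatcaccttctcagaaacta
WRKY40: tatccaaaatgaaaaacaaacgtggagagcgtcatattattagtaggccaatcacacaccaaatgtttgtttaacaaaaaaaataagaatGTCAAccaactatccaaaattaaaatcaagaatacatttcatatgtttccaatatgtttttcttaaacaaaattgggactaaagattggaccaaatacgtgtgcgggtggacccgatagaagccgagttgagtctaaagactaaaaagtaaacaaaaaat

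The W-box core occurred in 6 of the 9 upstream sequences, against 44.9% of 27442 promoters of protein-coding genes of the same length. The match of *ERF5* lay within an exon of the neighbouring gene AT5G47229, so that 5 of the 9 held a W-box core outside annotated exons, which were not removed from the other promoters. *WRKY33* and *ZAT12* held 2 matches each, and those of *ZAT12* lay end to end. The GCC box occurred in 3 of the 9 (*ERF11*, *ZAT10* and *WRKY33*), against 1.87% of all promoters. Neither the rapid stress response element CGCGTT (2.59% of promoters) nor the G-box CACGTG (6.49%) was found in any of the 9. *ERF104*, *ERF6* and AT1G35210 had none of these motifs in this window. A match describes the letters only and was not tied to any measured binding.

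**Figure D1:**
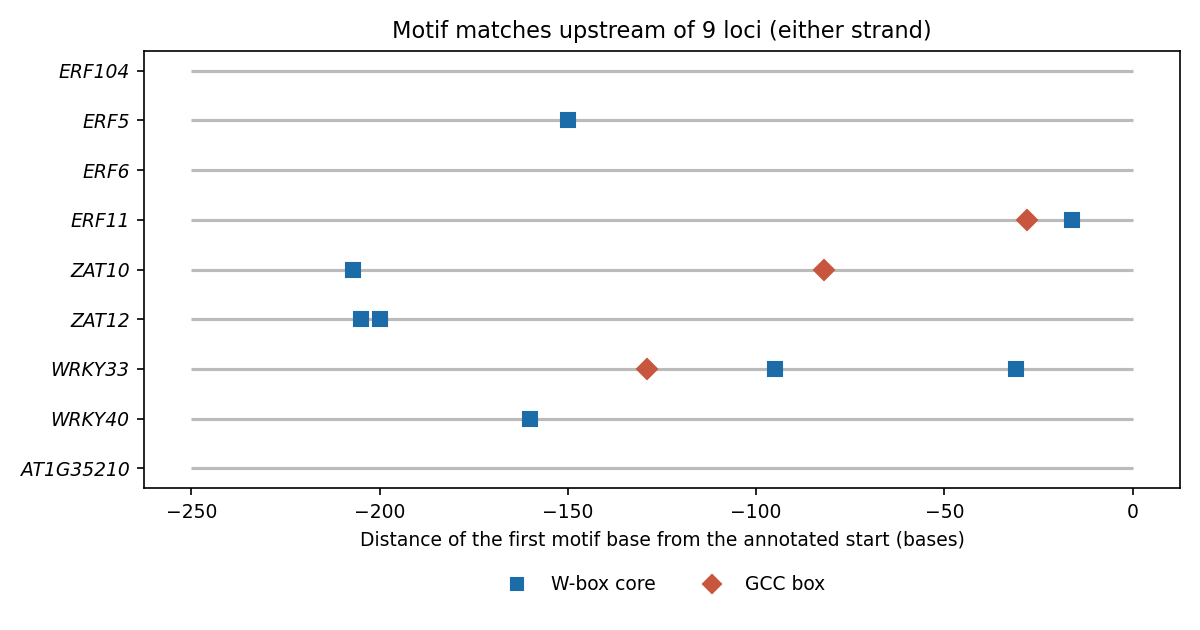
Matches to the W-box core (squares) and the GCC box (diamonds) on either strand in the 250 bases upstream of 9 of the loci; the horizontal axis is the distance of the first motif base from the annotated start, in bases. Of these 9 loci, 6 hold at least 1 W-box core, that of *ERF5* within an exon of its neighbour, and *ERF104*, *ERF6* and AT1G35210 hold neither motif.

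The total counts per library ranged from 13726579 to 20939575, and the reads assigned to the maternal Col-0 genome from 705347 to 1016576. The H1 genes followed the labels. *H1.2* encodes one of the main linker histones. It was counted 1484 and 996 times in the control endosperm against 314, 341 and 331 times in *h1/H1*. *H1.3* had 14 and 9 against 0 in each *h1/H1* library. In library-scaled counts (CPM), *H1.1* was at 183 and 106 in the controls and at 41.4, 91.9 and 72.6 in *h1/H1*, so that D came near B. No gene passed the edgeR quasi-likelihood test between the crosses at an adjusted p of 0.05 and 2-fold (0 of 18951 genes tested, 0%), although 372 genes had an unadjusted p under 0.05 and were higher in *h1/H1*, and 334 were lower. DESeq2 called 50 genes on the same counts. Library B stood apart in 10 heat stress genes, which summed to 4000 CPM in B, 582 in A, and 220 to 775 in C to E. The crosses differed in them too: in 4 of the 10 every *h1/H1* library lay below both controls, against 8.19% of all genes tested. All 10 were lower in *h1/H1* at an unadjusted p under 0.05 (edgeR), against 1.76% of all genes, and DESeq2 called 3 of them lower. The median seed coat marker, on the log2(CPM + 1) scale, was 5.72 in B and 7.57 to 8.97 in the other 4 endosperm libraries. The sum of these 11 markers went otherwise, with 5647 and 5699 CPM in the controls and 9058.5, 7843 and 6850.5 CPM in *h1/H1*, every *h1/H1* library above both controls, as were *TT8* and *MUM4* singly. In library F the seed coat markers had a median of 7.68 on the log2(CPM + 1) scale and a sum of 5827 CPM. The endosperm marker *MINI3* was at 0 in all 5 endosperm libraries, as was the embryo marker *DRN*, while *SUC5* and *ZOU* of the endosperm were abundant. Library F held 670 counts of *PHE1*, an imprinted endosperm gene, against at most 13 in the others. *FWA*, *FIS2* and *YUC10* were also highest in F, at 13.5, 8.20 and 17.3 CPM, while *ZOU*, *ALE1*, *MEA* and *SUC5* were lowest there. The median of the 12 endosperm markers was 4.02 in F and 1.85 to 3.06 in the endosperm libraries, on the log2(CPM + 1) scale. Their sum was 501 CPM in F and 589 to 672 CPM in the endosperm libraries. Of 13 embryo markers, F held 4126 counts of *FUS3*, 2355 of *ATML1*, and 2070 of *ABI3*, but at most 12 of *WOX2*, *STM*, *CUC2* and *DRN*, and the markers summed to 553 CPM in F against 597 to 796 CPM in the endosperm libraries. Of the reads of F assigned to a parent, 82.1% were maternal. The paper reports *FWA* and *FIS2* as reduced in *h1/H1* endosperm. With A and B as controls, their log2 fold changes were 0.11 and 0.01 (edgeR). The label of F is therefore uncertain, and which tissue it holds was not tested.

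Per kilobase of transcript, the zinc finger genes were the most abundant of the loci. The mean level over the 5 endosperm libraries was 71.9 CPM per kb for *ZAT12*, with a range of 51.6 to 106, and 55.2 for *ZAT10*, with a range of 35.6 to 70.3. These ranges overlapped, and no other locus reached the lowest value of either. *WRKY33* came next at 10.6 CPM per kb, with a range of 1.48 to 34.4 that overlapped those of all the remaining loci except *ERF5*. *ERF104* followed at 5.88, *ERF105* at 5.11, *WRKY40* at 3.06, *ERF11* at 2.74, *ERF6* at 2.48 and AT1G35210 at 2.37 CPM per kb, and the ranges of neighbours in this order overlapped throughout. *ERF5* was lowest, at 0.332 CPM per kb with no library above 0.537, and it was the locus that missed the minimum mean of 10 counts, so 9 of the 10 entered the fit.

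**Figure D2:**
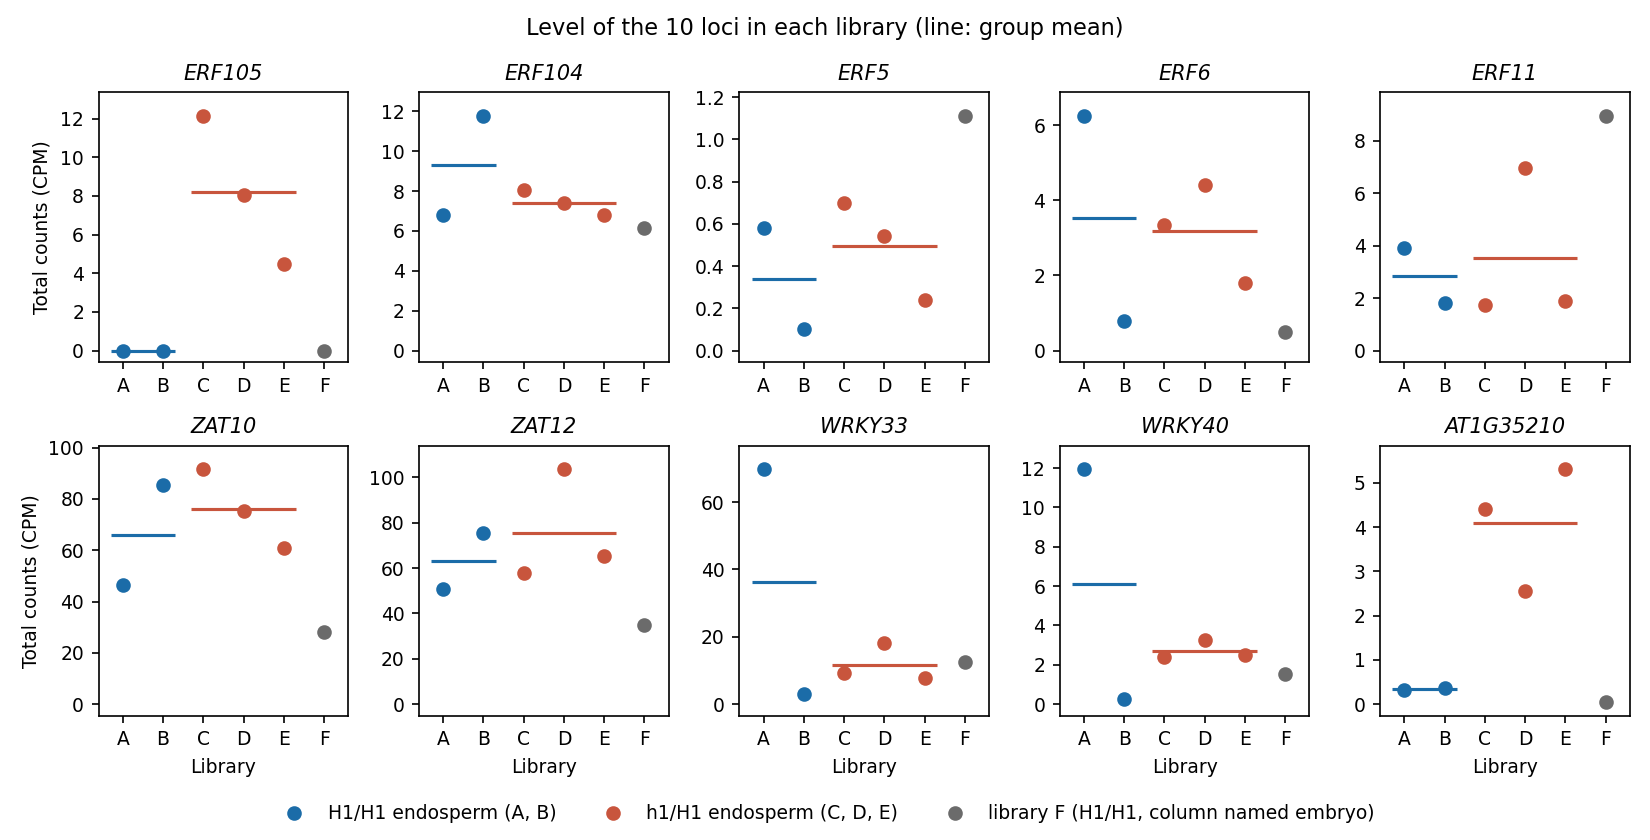
Total counts in CPM for each of the 10 loci in each library (one panel per locus, each with its own linear axis); blue points are *H1/H1* endosperm (A, B), red points *h1/H1* endosperm (C, D, E), grey points library F, and lines are group means. *ERF105* and AT1G35210 have every red point above both blue points, while *WRKY33* and *WRKY40* are highest in A and lowest in B.

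In 2 of the 10 loci, *ERF105* and AT1G35210, every *h1/H1* library lay above both *H1/H1* libraries, a pattern that 7.84% of all genes tested showed. No locus had every *h1/H1* library below both controls, which 8.19% of all genes did. Since these loci were picked on this contrast, nothing is read from the count. Of the 9 loci fitted, 5 had a positive and 4 a negative log2 fold change, with a median of 0.21 against -0.02 for all genes. That median is the same with *ERF105* set at the bound given for it below.

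The ethylene response factors of the group to which *ERF105* belongs activate genes through the GCC box, and *ERF105* itself is known from the cold response. Libraries A to E held 0, 0, 174, 104 and 74 total counts of *ERF105*. The mean level was 8.22 ± 3.85 CPM (SD, n = 3) in *h1/H1*, against no count in either control library. With a floor of 3 counts over the control group, the *h1/H1* counts as assigned in this table were at least 103-fold higher. This is no bound on the transcript itself, since in the separate mapping described below both control libraries held reads assigned to *ERF105*. It was also the single gene of the table with 0 in both controls and at least 10 counts in each *h1/H1* library, and no gene showed the opposite. Library F had 0 counts as well.

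The locus of *ERF105* overlaps another gene in full. In the RefSeq annotation it is a single exon of 965 bases on the minus strand (chr5:20800473-20801437), and all 965 bases lie within an exon of AT5G51180, a gene for an alpha/beta-hydrolase on the plus strand (chr5:20796950-20801479). The library kit does not mark strand, so reads from the pair cannot be told apart where they overlap. Libraries A to F held 280, 336, 155, 199, 258 and 314 total counts of AT5G51180. In counts, the library with most *ERF105* had the least AT5G51180. The sum of both genes was 280 and 336 in A and B, 329, 303 and 332 in C to E, and 314 in F. On the CPM scale, which allows for the lower depth of C to E, the sum was 14.7 and 17.4 in the controls and 22.99, 23.4 and 20.03 in *h1/H1*. The means of 16.1 ± 1.87 (SD, n = 2) and 22.1 ± 1.84 (SD, n = 3) differ 1.38-fold, with every *h1/H1* library above both controls. The fitted log2 fold change fell from 10.13 ± 1.22 (SE) for *ERF105* alone to 0.46 ± 0.29 (SE) for the sum, an alternative chosen after the data were seen. The value for *ERF105* alone also rested on the prior count, since a prior count of 5 gave 4.85.

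The maternal reads were mapped apart from the total counts, to Col-0 and L*er* cDNA sequences, and in them every library held reads assigned to *ERF105*. Libraries A to F held 17, 17, 46, 33, 20 and 3 maternal reads of *ERF105*. The *h1/H1* libraries again all lay above both controls, but E was close to them: the exact 95% Poisson interval was 12.2 to 30.9 reads for E and 9.90 to 27.2 for A. Scaled to the maternal reads (CPM) the levels were 18.4 and 16.5 in the controls and 61.0, 48.6 and 23.7 in *h1/H1*, a 2.54-fold difference of the means and a log2 fold change of 1.33 ± 0.56 (SE). AT5G51180 had 2, 6, 4, 4 and 6 maternal reads from A to E. The sum of both genes in maternal CPM was 20.5 and 22.4 in the controls and 66.3, 54.5 and 30.8 in *h1/H1*. The means of this sum differed 2.35-fold. Thus the control libraries with 0 total counts of *ERF105* held maternal reads assigned to it, and the size of the difference depended on the mapping. Without strand, these reads too cannot be told apart from those of AT5G51180 where the genes overlap. A count of 0 in the total table beside at least 10 maternal reads was uncommon, with 36 to 53 such loci per library among 8621 to 10397 loci that had at least 10 maternal reads. How the counting divided reads between both genes was not tested.

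**Figure D3:**
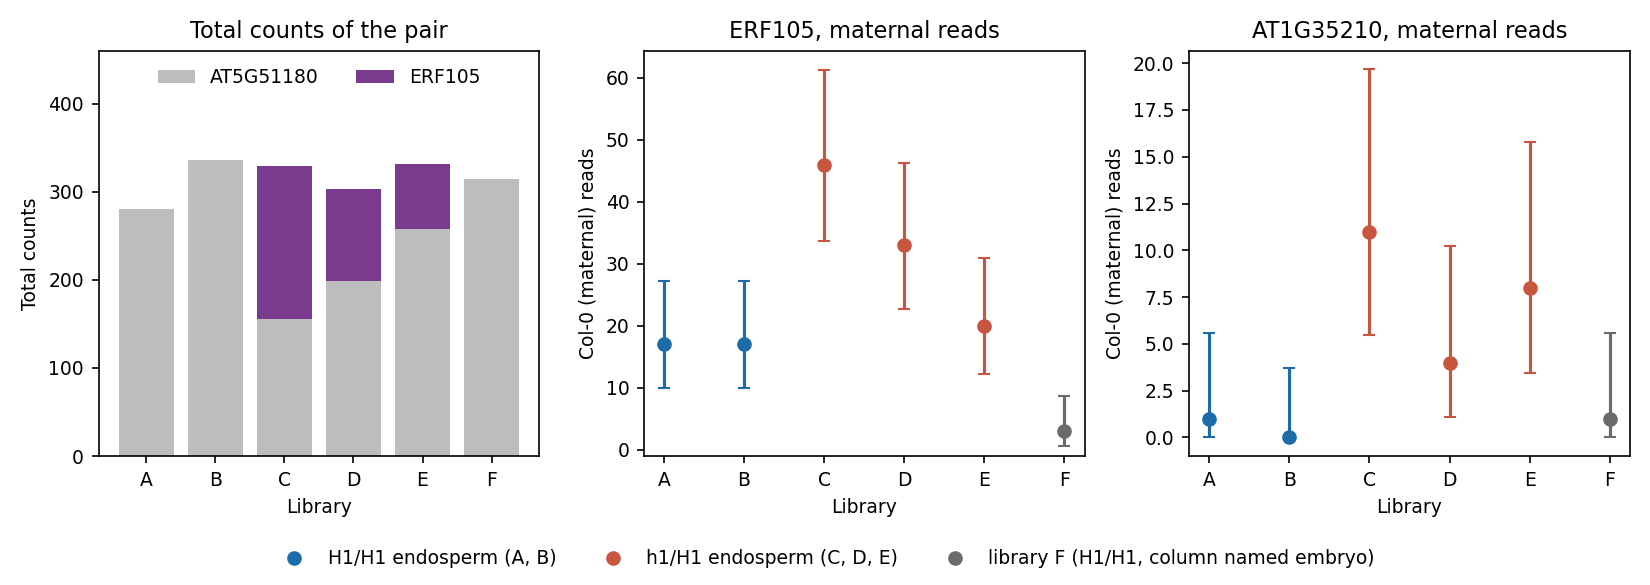
Left, total counts of *ERF105* (purple) stacked on those of the overlapping gene AT5G51180 (grey) in libraries A to F; middle and right, maternal (Col-0) reads of *ERF105* and of AT1G35210 with exact 95% Poisson intervals, which cover counting error only. The sums of the pair lie between 280 and 336 in every library, and the maternal reads of *ERF105* are 17 in both *H1/H1* endosperm libraries where the total count is 0.

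AT1G35210, which overlaps no annotated gene, was the other locus that separated the crosses. From A to F it had 6, 7, 63, 33, 88 and 1 total counts. The mean level was 0.339 ± 0.0327 CPM (SD, n = 2) in *H1/H1* and 4.09 ± 1.41 CPM (SD, n = 3) in *h1/H1*, a 12.1-fold difference with a log2 fold change of 3.57 ± 0.76 (SE). Its maternal reads, from a separate mapping of the same libraries, also separated the crosses, with 1, 0, 11, 4 and 8 reads from A to E, although C rather than E was then highest. With 1 maternal read over the control group, the ratio was 19.7 with an exact 95% counting interval of 3.20 to 812. In the maternal reads *ERF105* and AT1G35210 were again the pair of the 10 loci with every *h1/H1* library above both controls, a pattern shown by 10.1% of the 9981 loci tested there, to which AT1G35210 did not belong, since its mean of 4.17 reads was under the minimum of 10. The summed seed coat markers also lay above both controls in every *h1/H1* library, and their part in the difference of either locus was not tested. One locus outside the 10, AT1G67105 (0.01%), passed edgeR in the maternal reads. In bulk tissue, more cells that transcribe a gene and more RNA per cell cannot be told apart.

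*WRKY33*, which activates camalexin synthesis, and *WRKY40*, which represses defence genes together with its relatives, differed most between the control libraries. Libraries A to F held 1326, 58, 133, 235, 126 and 244 total counts of *WRKY33*. Library A was 23.3-fold above B, and the *h1/H1* libraries lay between them. For *WRKY40* the counts were 227, 5, 34, 42, 41 and 30 from A to F. Here A was 46.2-fold above B, and the *h1/H1* libraries, at 2.38 to 3.24 CPM, were within 1.37-fold of each other. Only 0.179% of all genes tested were as far up in A over B as *WRKY33* on the log2(CPM + 1) scale, and 0.449% as far as *WRKY40*. The log2 fold changes between the crosses were -1.64 ± 0.96 (SE) and -1.18 ± 1.098 (SE), and both turned positive without library A, at 1.96 and 3.35.

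Library A was highest in the maternal reads of both genes as well. *WRKY40* had 39, 2, 8, 9 and 10 maternal reads from A to E. *WRKY33* had 11, 1, 0, 1 and 1, too few to order the libraries other than A. Over the endosperm libraries this was 0.745% of its total counts, against 4.84% to 5.52% for whole libraries. The share varied widely over the 10 loci, with 1.48% in *ZAT12* and up to 43.9% in *ERF6*. The ends of these genes share 26 and 51 bases with exons of the neighbouring genes AT2G38480 and AT1G80850, and 6.95% of the stretches of 31 bases in *WRKY40* occur elsewhere in the genome.

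*ERF6*, a MAP kinase substrate in oxidative stress and defence, behaved like the WRKY genes. It had 119, 15, 48, 57, 30 and 10 total counts from A to F, with A 8.07-fold above B. The maternal reads were 60, 10, 7, 31 and 10 from A to E, so that A was highest in both mappings and D came second. *ERF5*, its close relative, was scarce, with 11, 2, 10, 7 and 4 total counts from A to E and at most 3 maternal reads in any library. Library B was again lowest, but no difference between the crosses was detectable at these counts, whose summed ratio of 1.41 had an exact 95% counting interval of 0.675 to 3.07. The log2 fold change of *ERF6* between the crosses was -0.14 ± 0.86 (SE), and without library A it was 2.03.

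*ERF104*, which is released by MPK6 in the response to bacterial flagellin, and the zinc finger genes went the other way between the controls. *ERF104* had 129, 228, 115, 96, 113 and 121 total counts from A to F. *ZAT10*, a repressor induced by salt, cold and light stress, had 881, 1651, 1312, 973, 1012 and 558. *ZAT12*, a gene of the response to reactive oxygen, had 962, 1459, 826, 1342, 1080 and 691. Library B was above A by 1.74-fold, 1.84-fold and 1.49-fold in CPM. The groups overlapped for all of these genes, and the means of *h1/H1* and *H1/H1* differed by less than 1 SD of the controls. *ZAT12* reached 104 CPM in D and *ZAT10* 91.7 CPM in C, so the high *h1/H1* library was not the same one for both. In maternal reads *ZAT10* had 46, 54, 103, 57 and 41 from A to E, with C again highest. *ZAT12* had 17, 21, 3, 28 and 15, so D was highest and C lowest, as in the total counts of the *h1/H1* libraries. The maternal reads of *ERF104* were 17, 30, 7, 16 and 14.

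*ERF11*, a repressor that acts on ethylene synthesis genes, had its highest level among libraries A to E in an *h1/H1* library. It had 74, 35, 25, 90, 31 and 177 total counts from A to F. The maternal reads were 21, 13, 8, 36 and 12 from A to E. Among A to E, D was highest in both, 3.98-fold above C in CPM. The groups overlapped, with means of 2.85 ± 1.47 CPM (SD, n = 2) and 3.52 ± 2.97 CPM (SD, n = 3).

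The 10 loci therefore fell into different orders across the libraries rather than rising together. Set against library A alone, 5 of the 10 had every *h1/H1* library higher (*ERF105*, *ERF104*, *ZAT10*, *ZAT12* and AT1G35210), where 21.3% of all genes tested did. Against library B alone, 6 did (*ERF105*, *ERF5*, *ERF6*, *WRKY33*, *WRKY40* and AT1G35210), where 26.0% of all genes did. *ERF105* and AT1G35210 were in both sets. Library B also carried the high heat stress genes given above, with 9 of the 10 at least 4-fold above A on the log2(CPM + 1) scale, as were 209 of the 18951 genes tested. Of the 11 seed coat markers, 8 were lower in B than in A, 3 of them at least 4-fold on that scale (1.87% of all genes tested), and 3 were higher (*TT10*, *MUM4* and *TTG2*), among them the most abundant marker, *TT10*, at 4102 CPM in B and 2370 in A. Their part in the differences between A and B was not tested.

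**Figure D4:**
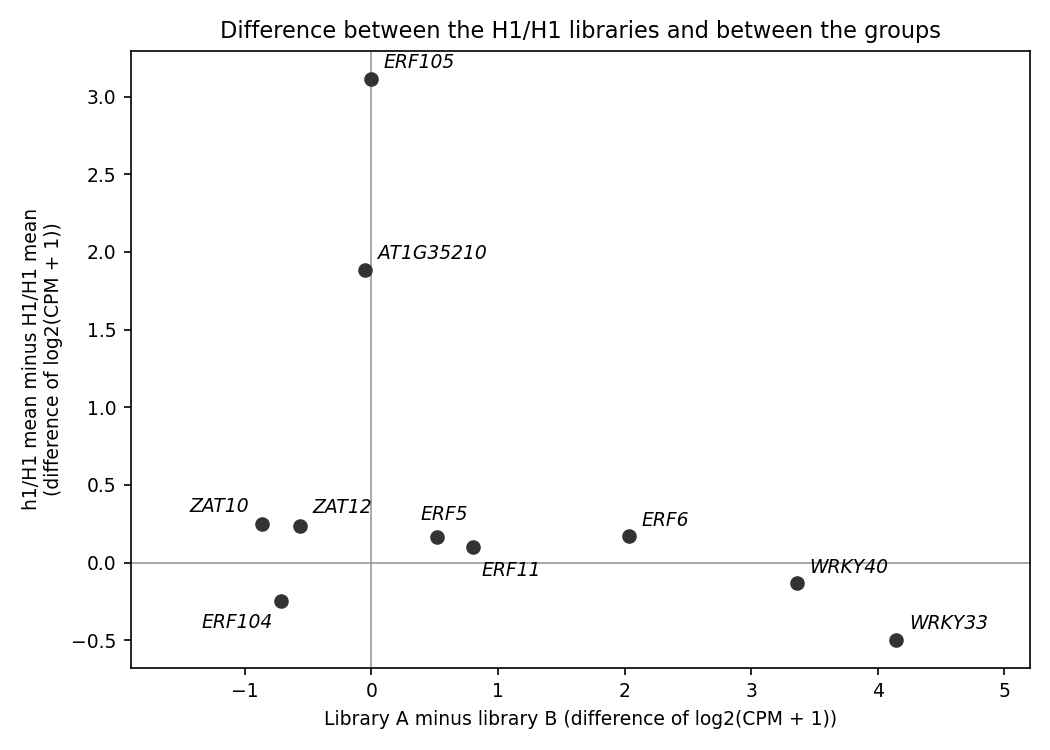
Each point is one of the 10 loci; the horizontal axis is library A minus library B and the vertical axis the *h1/H1* mean minus the *H1/H1* mean, both as differences of log2(CPM + 1). *WRKY33* lies at 4.15 and *WRKY40* at 3.36 on the horizontal axis, while *ERF105* and AT1G35210 lie near 0 there and at 3.11 and 1.89 on the vertical axis.

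Other genes of the same response were read from lists written from general knowledge, but with earlier results of these data known. Counts from these lists are therefore a description, given beside the shares of all genes. Of 72 genes in 5 lists, 58 were tested, and none passed edgeR at an adjusted p of 0.05 and 2-fold. At an unadjusted p under 0.05, 9 were higher in *h1/H1* (against 1.96% of all genes) and 3 were lower (against 1.76%). DESeq2 called 1 gene, *ZAT7*, where it called 0.153% of all genes higher. *ZAT7*, a zinc finger relative of *ZAT12*, had 14, 10, 64, 53 and 52 counts from A to E (DESeq2 log2 fold change 2.63, adjusted p = 0.0495).

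Among 21 tested genes of rapid wounding and touch, the median log2 fold change was 0.34, in 8 of them every *h1/H1* library was above both controls (7.84% of all genes tested), and in 3 (*ZAT6*, *MKK9* and *ERF1A*) every one was below (8.19%). The cold response activators *CBF1* and *CBF2* had log2 fold changes of 2.76 ± 0.86 (SE) and 1.76 ± 0.84 (SE), and the calmodulin-like gene *CML38* had 1.48 ± 0.55 (SE). At the other end, *ERF1A* had -2.20 ± 0.66 (SE), *ZAT6* -0.90 ± 0.25 (SE) and *TCH3*, a touch-induced calmodulin-like gene, -0.87 ± 1.26 (SE). *TCH3* repeated the order of the WRKY genes, with 1128, 8, 263, 311 and 112 counts from A to E. Without library A, which left B as the single control, the log2 fold change of *TCH3* was 5.28.

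The MAP kinase and calcium genes had a median of 0.01 over 11 tested, with none with an unadjusted p under 0.05. The highest were *MPK3* at 0.52 ± 0.40 (SE), *MKK4* at 0.38 and *RBOHD* at 0.30, and the lowest *SIB1* at -1.46 ± 1.28 (SE), *CAMTA3* at -0.66 and *MEKK1* at -0.12 on the log2 scale. In the jasmonate list the median was 0.18 over 11 tested. *LOX3*, a lipoxygenase of jasmonate synthesis, had 66.3, 86.9, 149, 133 and 121 CPM from A to E, with a log2 fold change of 0.81 ± 0.26 (SE). *VSP2* and *JAZ8* had 1.41 and 1.31, and *LOX2*, *JAZ10* and *LOX4* had -0.60, -0.23 and -0.08.

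Of the relatives of the 10 loci, 11 were tested with a median of 0.05. Beside *ZAT7*, *AZF2* and *ERF9* had the highest log2 fold changes, 0.43 and 0.34, and *ERF8*, *WRKY25* and *AZF3* the lowest, -0.83, -0.64 and -0.09. Of the 6 genes known to act downstream, 4 were tested. *PAD3*, the last enzyme of camalexin synthesis and a target of WRKY33, had 203, 0, 20, 19 and 0 counts from A to E and a log2 fold change of -2.49 ± 1.75 (SE). The ethylene synthesis gene *ACS2* had 204, 11, 17, 40 and 9, with A highest and D second as for *WRKY33*, and a log2 fold change of -1.82 ± 1.12 (SE). *ACS6*, of the same family, lay above both controls in every *h1/H1* library, at 57.8, 96.0 and 75.0 CPM against 30.2 and 44.6, with a log2 fold change of 1.03 ± 0.32 (SE), and the ascorbate peroxidase gene *APX1* had 0.28 ± 0.25 (SE).

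**Figure D5:**
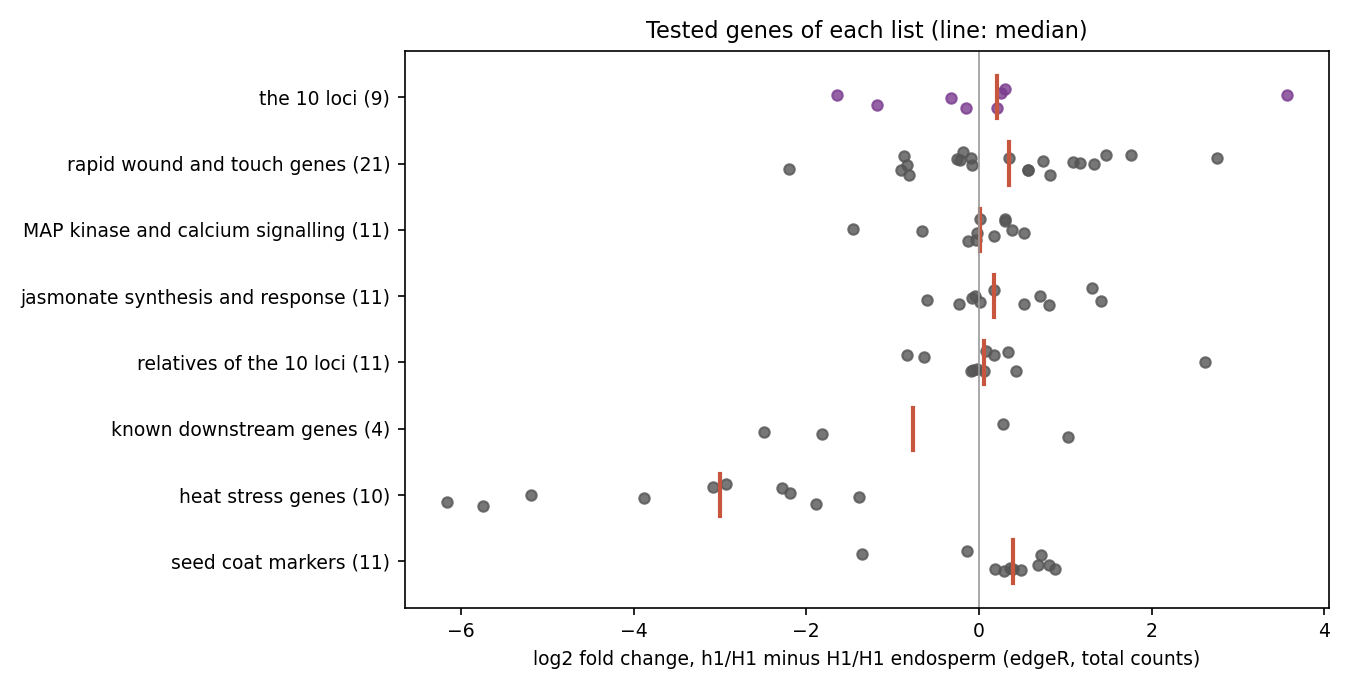
Endosperm log2 fold change of *h1/H1* against *H1/H1* (edgeR, total counts) for the tested genes of each list, one point per gene, with the number tested in brackets; red lines are medians, and *ERF105* is counted in the median of the 10 loci but lies outside the axis and is not drawn. The heat stress genes lie between -6.16 and -1.39, while the medians of the wound, kinase, jasmonate and relative lists lie between 0.01 and 0.34.

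The genes whose pattern was most like the mean of the 10 loci were named by Pearson's r over the 6 libraries, on the log2(CPM + 1) scale. The mean of the loci was 3.03, 2.16, 3.12, 3.34, 2.83 and 2.30 from A to F. The closest were AT5G14410, AT3G21710, *CALS5*, *EMB3147*, AT2G27389, AT1G75945, *DRP4C*, AT5G05800, *PGL4* and AT4G00040, with r from 0.989 to 0.999. All were low in B and F, as the mean of the loci was. With 6 libraries and 18951 genes, values of this size are a description only.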

How the data were processed

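The authors trimmed reads with fastp and assigned them to TAIR10 transcripts with Salmon 1.9.0. The deposited whole-number counts per gene were used as raw counts, although the table is titled as normalized. The authors also deposited counts of reads assigned by SNPs to Col-0 or L*er* cDNA. Column names tied 6 libraries to a group, without replicate numbers. From each file, 5 columns were not used: in the total counts those of libraries whose cross and tissue no column name gave, and in the allele counts the L*er* (paternal) reads of the endosperm libraries. Of 3 control endosperm samples listed, 2 had a column named for that cross and tissue.

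Counts were tested with edgeR 4.0.16 in R 4.3.3 (TMM, quasi-likelihood, mean of at least 10 counts, Benjamini-Hochberg, adjusted p of 0.05 and 2-fold), and with DESeq2 1.42.0 as an alternative. All 6 libraries entered the same fit, in which F, alone in its group, added no spread between replicates. P-values measure the spread between these libraries, which may be technical. CPM are counts scaled to the TMM-adjusted library size. Gene models and upstream sequences are RefSeq (TAIR10.1); 27390 of 27588 identifiers matched, and the authors' transcript models may differ. Named beyond the 10 loci are the 3 highest and 3 lowest log2 fold changes of each list, the H1 genes, and the 10 nearest genes by correlation; AT5G51180, AT1G67105 and single markers were named after their values were seen. The loci and lists were chosen with earlier results of these data known. The upstream sequence of 1 locus is not reported here. Fits were tested on counts simulated with changes of 3 on the log2 scale. In the total counts 172 of 198 changes were recovered with 13 false calls. For the maternal reads it was 180 of 183 with 8 false calls. No simulated library was set apart from its group, unlike A and B. Intervals cover counting error only.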

Additional observations from a re-analysis of the deposited data

Results flagged for a closer look

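In library F, which entered no comparison between the crosses, *ERF11* was at 8.96 CPM (177 counts) and *ERF5* at 1.11 CPM (22 counts), both above the 2 control endosperm libraries, which had at most 3.89 and 0.579 CPM. The other 8 loci were not above both controls in F. F is a single library, so these levels have no replicate check. Of 65 reads of *ERF11* assigned to a parent, 39 (60.0%, Wilson 95% interval 47.9% to 71.0%) were maternal, against 82.1% of all assigned reads in F. *ZAT10* had 21 of 25 maternal (84.0%, 65.3% to 93.6%), *ZAT12* 16 of 17 (94.1%, 73.0% to 99.0%) and *ERF104* 10 of 10 (100%, 72.2% to 100%). The seed coat carries no paternal genome, and the part that the mixture of tissues has in these shares was not tested.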

How the results depend on the processing

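The number of genes called between the crosses was 0 in the total counts and 1 in the maternal reads. DESeq2 called 50 and 11, and no filter on low counts gave 77 in the maternal reads. Leaving out 1 library at a time gave 0 to 109 genes in the total counts and 0 to 35 in the maternal reads, the highest without library A (109 and 35) and the next without B (9 and 15); the cause was not tested. The median log2 fold change of the 10 loci was -0.32 to 1.96 when 1 library was left out, highest without A and lowest without D. The number of loci with every *h1/H1* library above the controls was 2 to 6, with 6 without A and 5 without B. Genes of the wound, kinase, jasmonate, relative and downstream lists that passed numbered 0 in edgeR, 1 with DESeq2, and 0 when an *h1/H1* library was left out. The fits without A or without B left a single control library, so their calls carry no spread between controls. *ERF105* (9.74 to 10.43) and AT1G35210 (3.33 to 3.81) kept a positive log2 fold change under the normalization, filter, test and left-out library alternatives run. A prior count of 5 lowered them to 4.85 and 2.79, and the sum of *ERF105* with AT5G51180 gave 0.46. Each of the other 7 fitted loci changed sign without at least 1 library. No paired analysis was possible because the columns used carry no replicate numbers. Low counts limit *ERF5* and the maternal reads of AT1G35210 and *WRKY33*.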
